A study of Homo sapiens with 6 samples.

Results

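The replicate 2 arrays of the vector and shRNA1 lines were set against their replicate 1 arrays, to describe which genes differ between replicate collections of one breast cancer cell line. These are 4 of the 6 arrays of the series, and the 2 shRNA2 arrays were kept outside the fit as a check. All cells were MDA-MB-231-Luc-D3H1, a luciferase-tagged derivative of MDA-MB-231, a triple-negative human breast cancer line with mesenchymal features. Stable lines carried an empty GFP vector (pMKO.1-GFP), shRNA1 (labelled sh681) or shRNA2 (labelled shSiA), both shRNAs being directed against the long noncoding RNA LincIN. Each line gave a replicate 1 and a replicate 2 array from 250 ng of total RNA of cells harvested before full confluence. The series text speaks of independent RNA collections but does not tie a replicate number to a collection. The pair of vector and shRNA1 was chosen because their replicate differences were already known to correlate.

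The replicate differences of vector and shRNA1 were much alike, while those of shRNA2 were smaller and mostly unlike them. This contrast restates how the pair was chosen and is no independent result. What follows is therefore described for vector and shRNA1, not for every line. Over 16098 probe sets with 1 gene symbol, the replicate 2 minus replicate 1 differences of vector and shRNA1 had a Pearson correlation of 0.626. The corresponding correlations with shRNA2 were 0.14 for vector and 0.15 for shRNA1. The standard deviation of the differences was 0.40 in vector, 0.40 in shRNA1 and 0.23 in shRNA2 on the log2 scale. They describe likeness over probe sets read from the same 2 arrays per line, and no p is given. Over all 53617 probe sets, arrays of the same number in vector and shRNA1 correlated at 0.979 in both cases. Arrays of the same line correlated at 0.973 for vector, 0.970 for shRNA1 and 0.988 for shRNA2. On the 16098 probe sets tested, both kinds of pair in vector and shRNA1 lay at 0.980.

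Several RNA classes recur below. Small Cajal body RNAs (scaRNAs) are short noncoding RNAs that guide the chemical modification of the small nuclear RNAs of the spliceosome. MicroRNAs are short RNAs cut from hairpin precursors that repress messenger RNAs through pairing of their seed, bases 2 to 8 of the mature strand. The snaR RNAs are small RNA polymerase III transcripts that bind the double-stranded RNA binding protein NF90. Ribosomal proteins, which build the ribosome together with ribosomal RNA, are encoded by short and highly transcribed genes.

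The mature sequences of the microRNAs discussed below are given first, 5′ to 3′ with the seed in capitals, from RefSeq on GRCh38.p14. The let-7 pair and the pair of miR-454-3p and miR-3666 are shown because each shares a seed while its genes were called in opposite directions. The others belong to the microRNA genes with the largest called differences.
hsa-miR-221-3p: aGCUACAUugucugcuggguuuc
hsa-miR-32-5p: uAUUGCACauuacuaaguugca
hsa-let-7a-5p: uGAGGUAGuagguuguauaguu
hsa-let-7e-5p: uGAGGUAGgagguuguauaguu
hsa-miR-454-3p: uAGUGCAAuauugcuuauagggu
hsa-miR-3666: cAGUGCAAguguagaugccga
hsa-miR-4481: gGAGUGGGcuggugguu
hsa-miR-4521: gCUAAGGAaguccugugcucag

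Replicate 2 differed from replicate 1 at 897 probe sets of 853 genes (limma, Benjamini-Hochberg adjusted p under 0.05), or 5.57% of those tested, and these are termed called. Of them, 541 were higher in replicate 2 (3.36%) and 356 were lower (2.21%). The sign was the same in vector and shRNA1 at all 897, which follows from a test on the mean of these differences. A difference of 2-fold, or 1 on the log2 scale, was exceeded by 194 of the higher and 53 of the lower calls, and one of 4-fold by 18 and 1. The smallest called difference was 0.63. At an unadjusted p under 0.001 the count was 493, with 338 higher. In bulk RNA, a transcript present in fewer cells and a transcript at a lower level per cell cannot be told apart.

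The calls rest on little replication and on a pair of lines chosen because their differences correlated. Their count and p-values are optimistic for that reason. The fit has 1 residual degree of freedom and borrows 5.56 prior degrees of freedom from all probe sets, and without that borrowing 0 probe sets passed, with 1592 at an unadjusted p under 0.05. With the shRNA2 arrays under the same replicate term, 2 probe sets passed, those of POLK and ITM2B. In that same fit, leaving out either vector array gave 1 call and leaving out either shRNA1 array gave 9.

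Just inside the threshold lay B9D2, with a difference of 0.65, and ANKRD39, with -0.64. Just outside lay LINC01061, with 0.66, and MIOX, with -0.65.

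**Figure D1:**
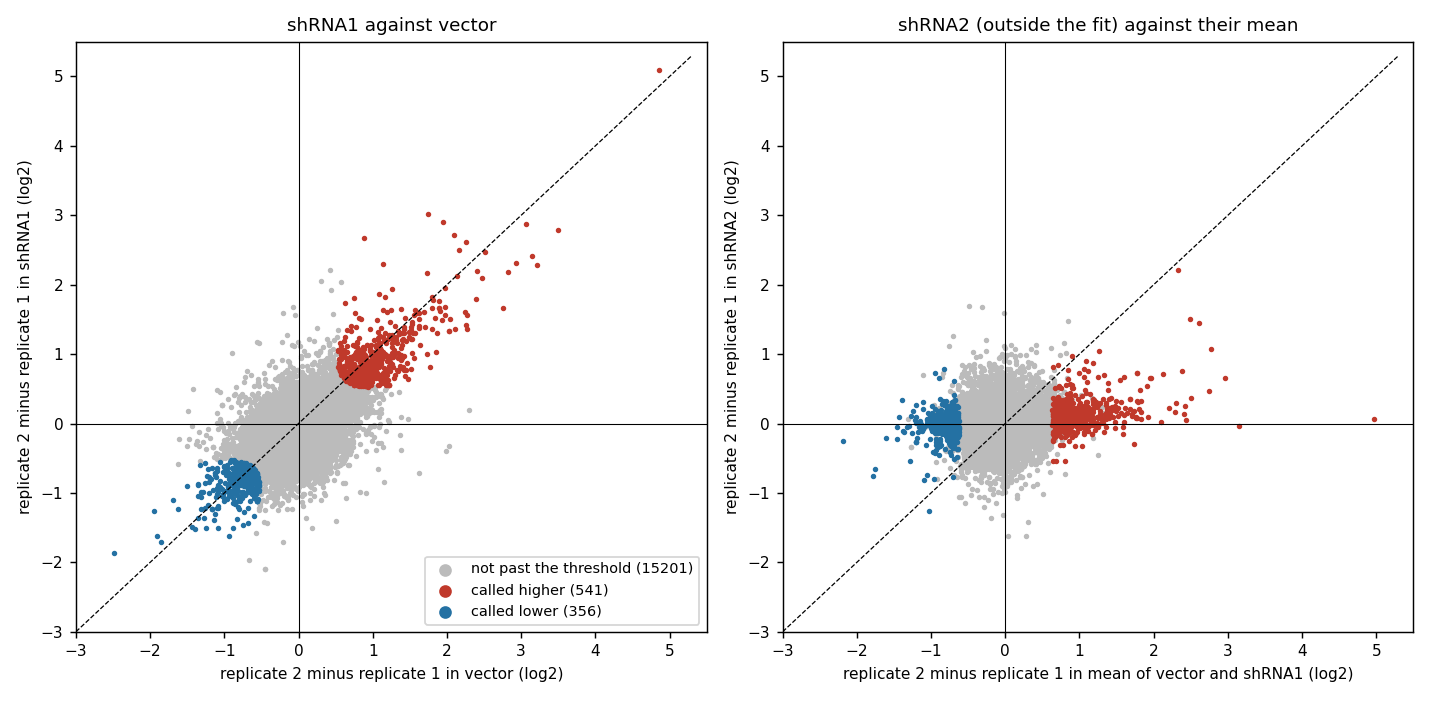
Replicate 2 minus replicate 1 on the log2 scale, 1 point per probe set (16098), with called probe sets in red (541 higher) and blue (356 lower) and the dashed line marking equal differences. On the left, shRNA1 against vector, where called points lie along the line; on the right, shRNA2 against the mean of vector and shRNA1, where most called points lie near 0 on the shRNA2 axis.

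The largest difference belonged to LOC100287834, an uncharacterised long noncoding RNA gene at chr7:63396340-63399041 (GRCh38.p14). Its log2 level was 7.42 in vector replicate 1 and 12.27 in vector replicate 2, 7.15 in shRNA1 replicate 1 and 12.24 in shRNA1 replicate 2, and 9.65 and 9.72 in shRNA2. Both replicate 2 arrays lay far above both replicate 1 arrays, and both shRNA2 arrays lay between them. The shared difference was 4.97 (SE 0.14, adjusted p = 0.000168, limma), or 31.4-fold. It was also the sole probe set, 0.00621% of those tested, whose shRNA2 difference departed from the shared one past the threshold (-4.90, SE 0.25, adjusted p = 0.00657, limma).

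MALAT1, an abundant long noncoding RNA of nuclear speckles, was called higher on all 3 of its probe sets. On the probe set with the largest difference it stood at 9.43 and 12.64 in vector, 9.86 and 12.14 in shRNA1, and 11.10 and 11.58 in shRNA2, replicate 1 first. Again the replicate 2 arrays of vector and shRNA1 were the highest and their replicate 1 arrays the lowest. The difference was 2.75 (SE 0.22, adjusted p = 0.00578, limma) on that probe set, and 2.50 and 0.74 on the others.

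POLK, a DNA polymerase that copies past damaged bases, was the one gene among the 15 highest whose shRNA2 arrays differed by nearly as much as the others. Its log2 level went from 3.71 to 5.87 in vector, from 3.84 to 6.34 in shRNA1 and from 4.50 to 6.71 in shRNA2. All 3 replicate 2 arrays lay above all 3 replicate 1 arrays. The shared difference was 2.33 (SE 0.15, adjusted p = 0.00382, limma) and the shRNA2 difference 2.22.

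ITM2B, a type II membrane protein, went from 5.15 to 7.66, from 4.82 to 7.29 and from 6.48 to 7.99 in the same order. TRAM1, which helps nascent proteins into the endoplasmic reticulum, went from 5.47 to 8.40, from 5.16 to 7.47 and from 6.58 to 8.03. PAIP2, an inhibitor of the poly(A)-binding protein, went from 5.53 to 8.67, from 5.14 to 7.55 and from 7.30 to 8.37. For these 3 genes the shRNA2 arrays moved the same way by 1.51, 1.45 and 1.07, against shared differences of 2.49, 2.62 and 2.77. PTGES3, the HSP90 co-chaperone p23, had a shared difference of 2.97 and 0.65 in shRNA2, and MAPK1IP1L had 2.38 and 0.76.

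For OSTF1, named as an osteoclast-stimulating factor, the shared difference was 2.41, and for TIMM13, a chaperone of protein import into mitochondria, it was 2.30. Their shRNA2 differences were 0.14 and 0.29. Of the 15 highest genes, 6 differed by 1.5-fold or more the same way in shRNA2, which had no part in their choice. Such an upward shRNA2 difference was seen at 28 of the 541 higher calls and at 220 of all 16098 probe sets. All 6 genes were read here on a dimmer probe set, and their brighter one differed less, as given further below.

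**Figure D2:**
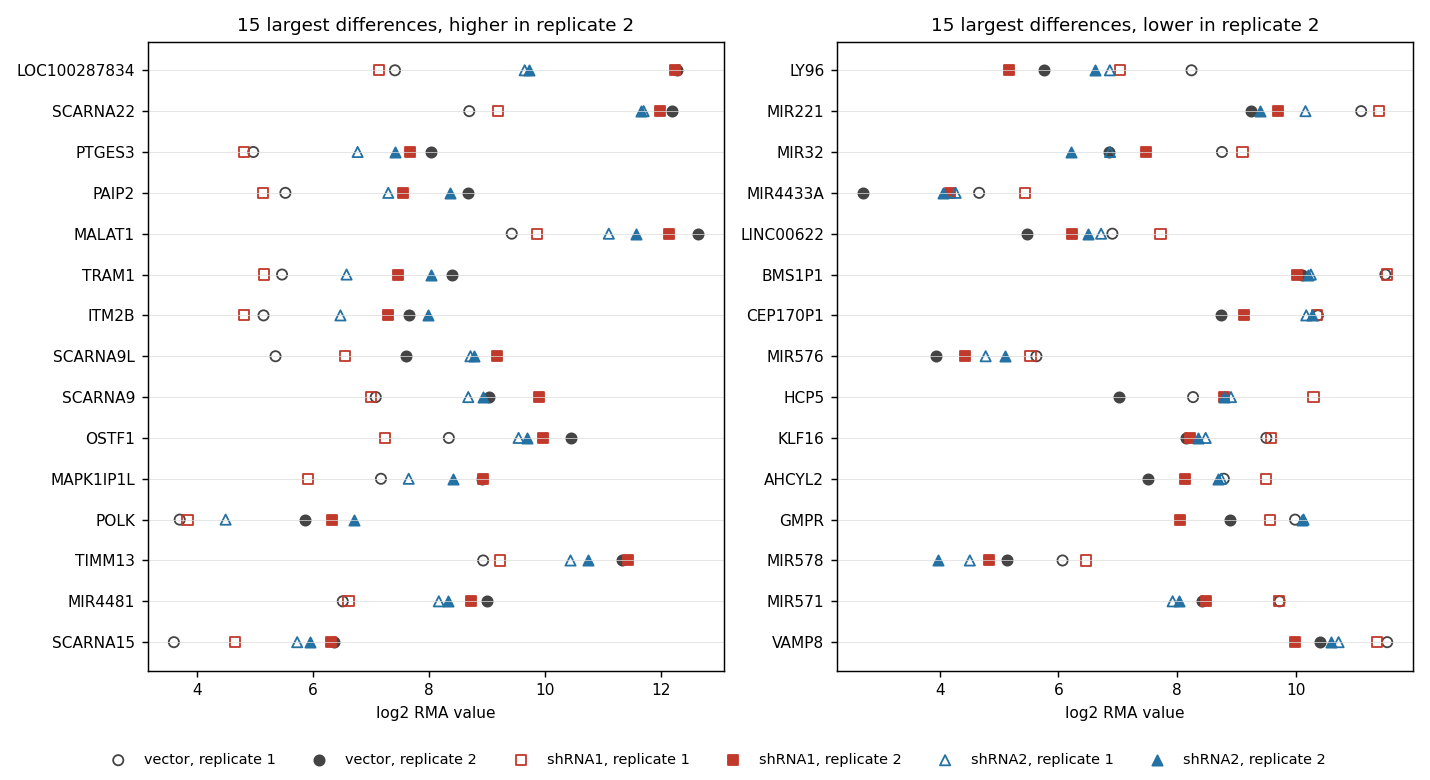
Log2 RMA values on the 6 arrays for the 15 genes with the largest called differences in each direction, ordered by size, with open symbols for replicate 1 and filled symbols for replicate 2. In the left panel LOC100287834 separates by 4.97 between replicates of vector and shRNA1 while both shRNA2 arrays sit in between; in the right panel HCP5 is the gene whose replicate groups overlap.

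Of the genes lower in replicate 2, LY96 fell most. LY96, also called MD-2, is the partner of the lipopolysaccharide receptor TLR4. Its log2 level was 8.24 and 5.75 in vector, 7.04 and 5.17 in shRNA1, and 6.87 and 6.62 in shRNA2. Both replicate 2 arrays of vector and shRNA1 lay below every other array. The difference was -2.18 (SE 0.18, adjusted p = 0.00578, limma), the 1 lower call beyond 4-fold.

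VAMP8, a SNARE protein of endosomes and secretory granules, stood at 11.54 and 10.41 in vector, 11.37 and 9.99 in shRNA1, and 10.72 and 10.59 in shRNA2, a difference of -1.26. KLF16, a zinc finger transcription factor, had a difference of -1.36, AHCYL2, a homologue of S-adenosylhomocysteine hydrolase, one of -1.32, and GMPR, guanosine monophosphate reductase, one of -1.30. HCP5, a long noncoding RNA gene within the HLA region, stood at 8.27 and 7.02 in vector and 10.30 and 8.79 in shRNA1, with shRNA2 at 8.91 and 8.80. Its shRNA1 arrays lay above the vector arrays of the same number, so that its replicate groups overlapped, with a difference of -1.38 within lines. Other, slightly dimmer probe sets of HCP5 had -0.44 and -0.63 and were not called. The remaining genes of the 15 lowest were LINC00622 (-1.46), the pseudogenes BMS1P1 (-1.46) and CEP170P1 (-1.43), and 6 microRNA genes. In shRNA2, 12 of the 15 had the same sign, and MIR221 and MIR32 passed 1.5-fold.

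Small Cajal body RNAs were the list with the highest share of calls. All 23 members of the snoRNA and scaRNA list that had a named probe set were scaRNAs, and 16 of them were called higher and 0 lower, 69.6% against the 3.36% called higher over all probe sets. The median difference over the 23 was 1.15 in vector, 0.98 in shRNA1 and 0.05 in shRNA2, where the medians over all probe sets tested were -0.01, -0.11 and 0.01. With all probe sets fitted together, 8 were called higher.

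SCARNA22 was at 8.70 and 12.20 in vector, 9.19 and 11.98 in shRNA1, and 11.70 and 11.67 in shRNA2. Both shRNA2 arrays lay near the replicate 2 arrays of the other lines. The shared difference was 3.14 (SE 0.19, adjusted p = 0.00382, limma). SCARNA9L was at 5.36 and 7.61, at 6.56 and 9.18, and at 8.72 and 8.77, with a shared difference of 2.44, and SCARNA9 had one of 2.42. SCARNA9L derives from a copy of SCARNA9, so the probes of each could read the RNA of the other. SCARNA15 (2.21) and SCARNA17 (2.09) completed the calls beyond 4-fold in the list.

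The other 11 called scaRNAs had differences between 0.95 for SCARNA14 and 1.68 for SCARNA10. For 14 of the 16 called members both shRNA2 arrays were nearer to the replicate 2 than to the replicate 1 mean. SCARNA17 and SCARNA3 were the exceptions, and SCARNA17 stood at 7.82 and 7.85 in shRNA2 beside 8.17 and 10.56 in vector. Such nearness held at 63.2% of all higher calls and 46.8% of all probe sets. In it the shRNA2 line and the replicate cannot be told apart. Within shRNA2 the called members differed by between -0.12 and 0.25.

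The 7 scaRNAs below the threshold ranged from 0.58 for SCARNA16 to -0.71 for SCARNA4. SCARNA12 differed in opposite directions between the lines, by 0.51 in vector and -0.70 in shRNA1. SCARNA4 was higher in both shRNA2 arrays (12.17 and 11.85) than in any other array (9.77 to 11.03).

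**Figure D3:**
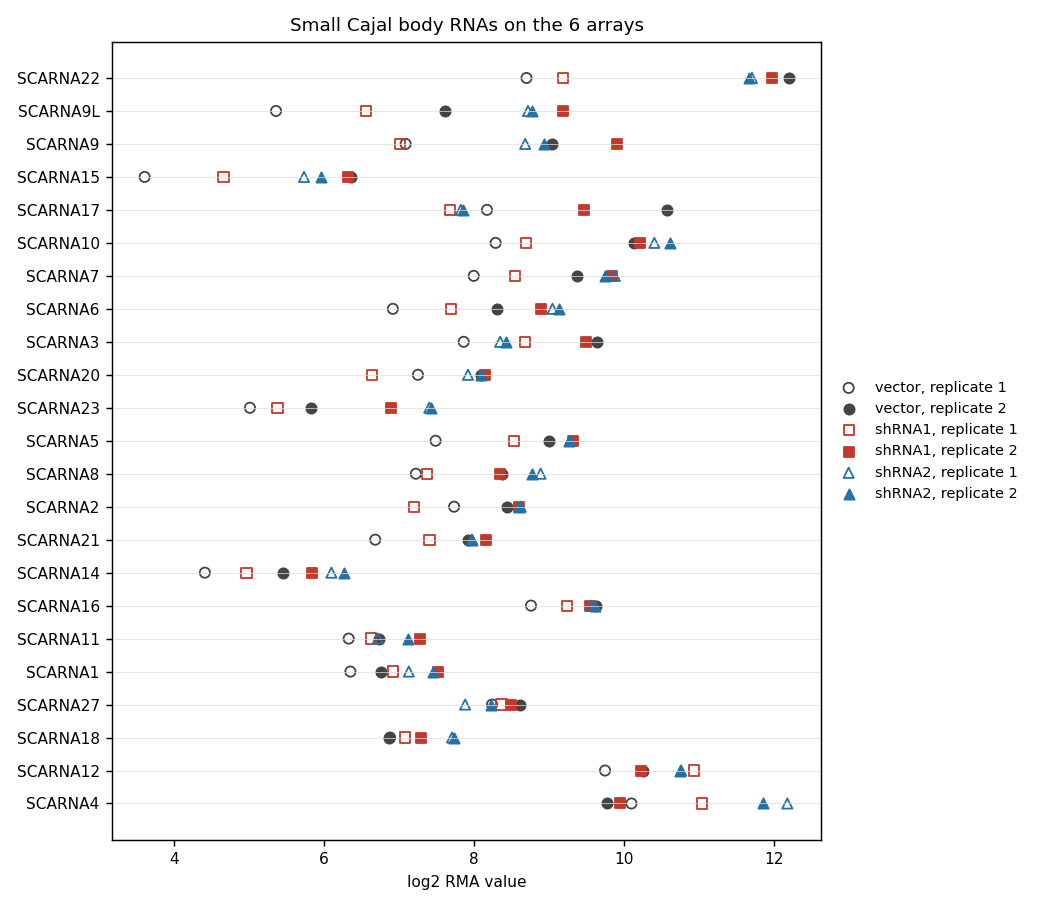
Log2 RMA values of the 23 small Cajal body RNAs on the 6 arrays, ordered by the shared difference, with open symbols for replicate 1 and filled symbols for replicate 2. For 14 of the 16 called members both shRNA2 arrays sit nearer to the replicate 2 than to the replicate 1 mean of vector and shRNA1. This held at 63.2% of all higher calls.

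The list of other small structured RNAs had 2 of 6 probe sets called higher and 1 lower. These are 33.3% and 16.7%, beside 3.36% and 2.21% over all probe sets. RMRP, the RNA of the RNase MRP that processes ribosomal RNA, stood at 12.14 and 13.76 in vector, 12.42 and 13.83 in shRNA1, and 13.58 and 13.69 in shRNA2, a shared difference of 1.52. RPPH1, the RNA of RNase P that trims tRNA precursors, had one of 0.77, and TERC, the telomerase RNA, which is outside the list and was added after its value was seen, one of 0.94. In these 3 genes the vector and shRNA1 replicate 1 arrays were the lowest of the 6. VTRNA2-1, annotated as a vault RNA, was lower (-0.87).

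The snaR list, chosen after its values were seen, had 6 of 14 probe sets called higher (42.9%, against 3.36% over all) and 0 lower. Its median difference was 0.66 in vector, 1.16 in shRNA1 and 0.37 in shRNA2. SNAR-B1 was at 7.96 and 10.23, at 9.21 and 10.77, and at 9.81 and 10.36, with a shared difference of 1.91. SNAR-C1 (1.78) and SNAR-H (1.58) were the other genes called. The 6 called probe sets hold 4 distinct sets of values, because probe sets of near-identical snaR copies carry the same numbers. Values of single snaR genes are therefore uncertain.

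Of 1253 probe sets matched by name, 27 were called higher (2.15%) and 62 lower (4.95%), beside 3.36% and 2.21% over all probe sets. Their median differences were -0.06 in vector, -0.16 in shRNA1 and -0.02 in shRNA2. The counts were 51 higher and 71 lower with arrays centred on their medians, 48 and 116 after quantile normalization, and 4 and 7 with all probe sets. Some probe sets carry identical values, and the 62 lower calls hold 57 distinct sets of values. With 1 row per set of identical probe sets, 21 were higher and 52 lower of 1189. By gene, 26 were higher and 54 lower, and 74 of these 80 matched a mature sequence. A probe set of this array does not tell a precursor from its mature strands, so that no value can be given to an arm.

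MIR221, at chrX:45746157-45746266 by its RefSeq hairpin, stood at 11.10 and 9.25 in vector, 11.41 and 9.70 in shRNA1, and 10.16 and 9.41 in shRNA2. Replicate 2 was the lower array in each of the 3 lines. The shared difference was -1.78 (SE 0.14, adjusted p = 0.00554, limma), with -0.76 in shRNA2. MIR222, its neighbour on the X chromosome, was looked up for this reason and had a difference of -0.47 (adjusted p = 0.0978, limma).

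MIR32 stood at 8.76 and 6.86 in vector and 9.10 and 7.48 in shRNA1, a difference of -1.76 (SE 0.14, adjusted p = 0.00578, limma). Its shRNA2 arrays, at 6.87 and 6.22, lay near or below the lower of the replicate 2 arrays. TMEM245, whose intron holds MIR32, was looked up for this reason and had a difference of -0.13 (adjusted p = 0.588, limma). The other microRNA genes among the 15 lowest were MIR4433A (-1.61), MIR576 (-1.39), MIR578 (-1.28) and MIR571 (-1.27).

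Among the microRNAs that were higher, MIR4481 stood at 6.52 and 8.99 in vector, 6.62 and 8.72 in shRNA1, and 8.17 and 8.34 in shRNA2. Its shared difference was 2.29 (SE 0.15, adjusted p = 0.00455, limma). MIR4521 was called on both of its probe sets, by 1.73 and 1.58, and its brighter probe set read 10.64 and 10.35 in shRNA2, above the highest of the vector and shRNA1 arrays (10.34).

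MicroRNA genes with a common seed had calls of either sign. MIRLET7A2, 1 of the genes for let-7a, stood at 8.33 and 7.12 in vector and 8.55 and 7.55 in shRNA1, a difference of -1.11. MIRLET7E stood at 7.31 and 8.71 and at 7.78 and 8.72, a difference of 1.17. As printed above, let-7a-5p and let-7e-5p have the seed GAGGUAG in common. The other 8 let-7 genes measured were not called, with differences from -0.26 to 0.46. MIR454 (1.02) and MIR3666 (-0.70) share the seed AGUGCAA and also had opposite signs. MIR3156-1 and MIR3156-2, which encode the same mature strands, were both higher, by 0.69 and 0.92. MIR3156-1 was dim, at 2.35 to 3.45 on the 6 arrays, where the lowest value of any probe set was 1.79. MIR3156-3 had a difference of 0.59 and was not called (adjusted p = 0.0788, limma). Of 4 seeds found in more than 1 called gene, 2 come from the pair of MIR3156-1 and MIR3156-2, 1 from each arm.

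Of 60 probe sets of cytosolic ribosomal proteins, 14 were called higher (23.3%, against 3.36% over all) and 0 lower, with median differences of 0.42 in vector, 0.33 in shRNA1 and 0.10 in shRNA2. RPS21 stood at 8.94 and 10.87 in vector, 9.36 and 10.86 in shRNA1, and 10.66 and 10.78 in shRNA2, a shared difference of 1.71 (SE 0.16, adjusted p = 0.00778, limma). RPL11 stood at 10.50 and 11.92, at 10.62 and 12.01, and at 11.54 and 11.76, a difference of 1.41. RPS16 had a mean difference of 1.78 that was uneven between the lines, with 0.89 in vector and 2.67 in shRNA1. For 13 of the 14 called, both shRNA2 arrays lay nearer to replicate 2, as at 63.2% of all higher calls and 46.8% of all probe sets. The counts were 25 higher and 1 lower with arrays centred on their medians, 19 and 1 after quantile normalization, and 2 and 0 with all probe sets.

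Other members were not called. RPL10, RPS28 and RPS23, at log2 levels between 10.40 and 13.61, had differences of -0.36, -0.04 and 0.01, and RPL31 had the lowest value of the list at -0.60 (adjusted p = 0.0546, limma). RPL19 was called on 1 probe set (1.44) and had -0.28 on a brighter one, and RPL39 was likewise called on 1 probe set and had -0.28 on another. Ribosomal protein genes have many processed pseudogenes, and single probe sets could read them too.

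Mitochondrial ribosomal proteins, a list made after its values were seen, had 17 of 82 probe sets called higher (20.7%, against 3.36% over all) and 2 lower (2.44%, against 2.21%). With all probe sets fitted together, 4 and 0 were called. MRPL57 (1.56), MRPS23 (1.43), MRPL2 (1.36) and MRPL58 (1.15) had the largest differences. Mitochondrial electron transport subunits had 5 of 28 called higher (17.9%) and 0 lower, with ATP5IF1 (1.19), the inhibitor of ATP synthase, and COX8A (0.92), a subunit of cytochrome c oxidase, among them.

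Splicing regulators had 9 of 79 probe sets called higher (11.4%, against 3.36% over all) and 2 lower (2.53%, against 2.21%). HNRNPR stood at 9.36 and 10.46 in vector, 9.35 and 10.51 in shRNA1, and 10.33 and 10.43 in shRNA2, a difference of 1.13, and HNRNPM and HNRNPH1 had 1.03 and 0.87. These proteins bind nascent RNA and steer the choice of splice sites. The fourth member named, HNRNPA1P10 (1.04), is an HNRNPA1 pseudogene. The Sm core proteins form the ring of spliceosomal RNAs and were listed after their values were seen. They had 4 of 8 probe sets higher and 1 lower, or 50% and 12.5%, beside 3.36% and 2.21% over all. SNRPD3 had 1.65, SNRPD1 1.59, SNRPF 1.17 and SNRPD2 1.09.

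Hosts of small nucleolar RNAs had 3 of 12 probe sets higher, those of SNHG8 (1.17), SNHG33 (0.94) and SNHG5 (0.87), and 1 lower, that of SNHG15 (-1.06). Ribosome biogenesis factors had 3 of 13 higher, with NOP16 at 1.24, and 1 lower, BOP1 at -0.75. The shares were 25% and 8.33% for the hosts and 23.1% and 7.69% for these factors. Over all probe sets they were 3.36% and 2.21%.

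Immediate early genes, which respond to growth factors within minutes, had 5 of 28 probe sets called higher (17.9%, against 3.36% over all) and 0 lower. JUN stood at 9.09 and 10.21 in vector, 9.48 and 10.45 in shRNA1, and 9.88 and 9.89 in shRNA2, a difference of 1.05. KLF2 (0.86), IER2 (0.79), IER3 (0.75) and MYC (0.66) were the others. Their median shRNA2 difference was -0.12. The list gave medians of 0.56 in vector, 0.07 in shRNA1 and -0.14 in shRNA2, and IER3 alone holds 11 of its 28 probe sets, with 4 distinct sets of values. Only 1 of these 4 was called, and the brightest had 0.57 and was not called (adjusted p = 0.0631, limma). FOS, FOSB, EGR1 and ATF3 were not called, with differences from -0.20 to 0.27.

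Cholesterol synthesis and uptake had 5 of 18 probe sets called higher (27.8%, against 3.36% over all) and 0 lower, on 4 genes. The medians of the list were 0.23 in vector, 0.05 in shRNA1 and 0.03 in shRNA2. PMVK, phosphomevalonate kinase, stood at 7.24 and 8.77 in vector, 7.12 and 8.57 in shRNA1, and 7.46 and 7.63 in shRNA2, a difference of 1.49 (SE 0.13, adjusted p = 0.00752, limma). FDPS (1.06) and EBP (0.77), later enzymes of the pathway, and ACAT2 (0.97), a cytosolic acetoacetyl-CoA thiolase, were the other genes. For none of the 5 called probe sets were both shRNA2 arrays nearer to replicate 2. INSIG1 and SQLE, sterol-regulated members, had differences of -0.10 and 0.15 and were not called. The lowest difference in the list was -0.71, also without a call.

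Stress and nutrient lists had 1 or 2 calls each, too few to set against the 3.36% and 2.21% over all probe sets. TXNIP, an inhibitor of thioredoxin whose level follows glucose, was higher on a probe set of mean level 6.47 (1.35), while its brighter one, at 10.4, had -0.27 and was not called. TXN, thioredoxin, was higher by 1.39. Of the endoplasmic reticulum chaperones, SDF2L1 was higher by 1.08, and HYOU1 by 1.25 on a probe set at 6.80 but with 0.14 and no call on the brighter one at 10.2. DDIT3, the stress factor CHOP, was lower (-0.65). INSIG2, on the hypoxia list, was higher by 1.17, HSPA9, mitochondrial HSP70, by 0.79, and the tRNA synthetases TARS1 and KARS1 by 0.72 and 0.67. Metallothioneins split, with MT1X at 1.27 and MT1F at -0.72. CCNG1, a p53 target, was lower (-0.82).

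Cell cycle genes had few calls, in both directions, 2 higher and 1 lower in S phase (9.52% and 4.76%) and 1 each in G2 and M phase (3.85%), beside 3.36% and 2.21% over all probe sets. Of 21 S phase probe sets PCNA (0.84) and CCNE1 (0.84) were higher and GINS2 (-0.99) lower. Of 26 G2 and M phase probe sets BIRC5 (1.19) was higher and CCNB2 (-0.91) lower. Interferon-stimulated genes had ISG15 (1.84) and IFIT1 (0.94) higher and HERC6 (-0.84) lower of 24, or 8.33% and 4.17%. ISG15 stood at 7.75 and 10.01 in vector, 8.05 and 9.47 in shRNA1, and 8.46 and 8.53 in shRNA2. Its replicate 2 arrays of vector and shRNA1 were above the other 4.

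ERK feedback genes had DUSP5 (0.90) higher and EREG (-0.76) lower of 12 probe sets, and YAP and TAZ targets had AMOTL1 (1.00) higher of 12. The brighter probe sets of DUSP5 and AMOTL1 had 0.01 and 0.17 and were not called. Matrix proteases and inhibitors had MMP8 (-0.93) and TIMP4 (-0.77) lower of 46 probe sets (4.35%). Solute carriers had SLC25A15 (0.94) higher and SLC49A4 (-0.96) lower of 17 (5.88% each). With 1 or 2 calls each, these 4 lists have too few to set against the 3.36% and 2.21% over all probe sets. Zinc finger (ZNF) genes had 12 of 488 probe sets higher (2.46%) and 7 lower (1.43%), and intergenic long noncoding RNAs had 4 of 545 in each direction (0.734%), with none of these shares above the 3.36% and 2.21% over all probe sets. ZNF770 (1.24), ZNF511 (1.18), ZNF350 (1.11) and ZNF195 (-1.20) were the largest of the first, ZNF770 on a dim probe set (3.92) beside a brighter one at -0.13. LINC00622, LINC01088 (0.86), LINC00667 (0.83) and LINC01003 (-0.82) were those of the second.

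Leaving aside the 3 lists made after values were seen (mitochondrial ribosomal proteins, snaR and Sm core proteins), 46 of 48 lists had measured members, of which 17 had higher calls alone, 3 lower calls alone, 13 both and 13 none. The lists without a call included those of TGF-beta response, fatty acid synthesis, glycolysis, circadian clock, glucocorticoid response, NF-kB targets, autophagy and lysosome, collagens, and keratin-associated proteins, the last with 86 probe sets. The others named here had from 5 (collagens) to 24 (NF-kB targets) probe sets each, and 5.57% were called over all probe sets. Lists this short can lack a call at that share, so the lack of one does not show that they were unchanged. B2M of the housekeeping list was called higher on 2 probe sets, by 1.08 and 0.81, of the 11 in that list (18.2%, against 3.36% over all). No list was tested as a set.

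**Figure D4:**
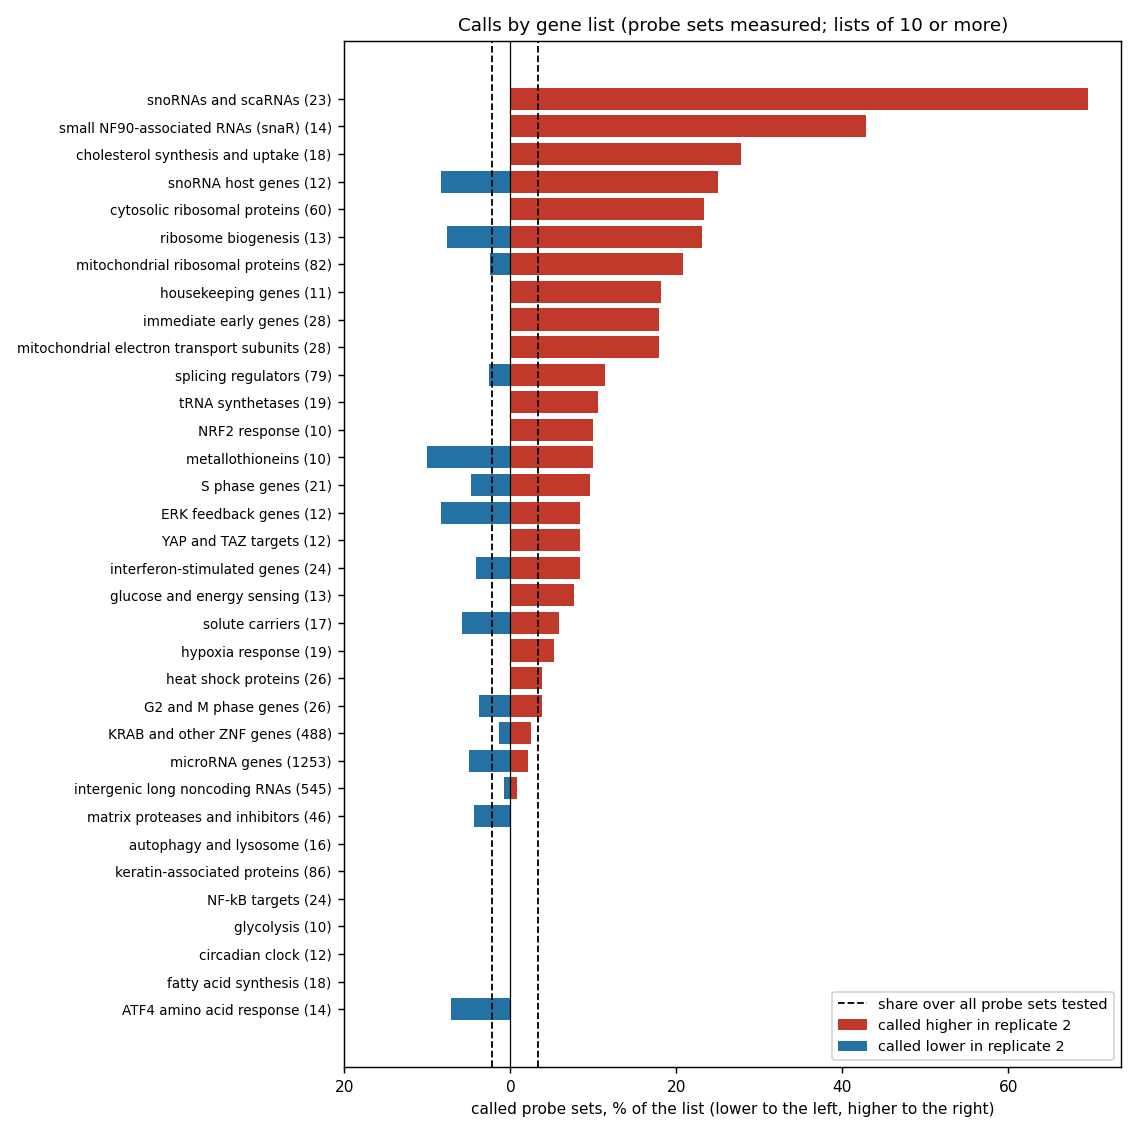
Share of probe sets called higher (red, right) and lower (blue, left) in each gene list with 10 or more probe sets, the number measured in brackets, with dashed lines at 3.36% and 2.21%, the shares over all probe sets tested. The scaRNA list reaches 69.6% higher, and the microRNA list has more lower than higher calls.

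Markers of cell identity were only partly measured. The mean log2 level of the 4 of 6 mesenchymal markers measured was 11.70 to 11.89 in replicate 1 and 11.83 to 12.01 in replicate 2 of vector and shRNA1, and 11.63 to 11.69 in shRNA2. VIM, vimentin, was called higher on 2 probe sets (1.37 and 1.36), while its brightest probe set had a difference of 0.17. The 6 of 7 epithelial markers lay at 7.31 to 7.39 in replicate 1, 7.68 to 7.82 in replicate 2 and 7.69 in shRNA2, with KRT19 (0.83) and EPCAM (0.69) called higher. The 6 of 7 luminal markers lay at 6.59 to 6.62, 6.76 to 6.87 and 6.32, with TFF1 (0.79) called higher. No fibroblast, endothelial or hematopoietic marker measured (3 of 7, 4 of 6 and 3 of 7) was called, and none of these lists has a detection call that would separate a low level from background. The calls above were on 2 of 6 mesenchymal, 2 of 7 epithelial and 1 of 6 luminal probe sets. Over all probe sets 3.36% were higher and 2.21% lower, and all these marker lists are too short to be set against those shares. The part of these levels in the replicate difference was not tested.

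By annotated class, 450 of 12695 probe sets of protein-coding genes were higher (3.5%) and 256 lower (2.0%). Of 1595 probe sets of long noncoding RNA genes, 24 were higher (1.5%) and 25 lower (1.6%). The shares over all probe sets were 3.36% and 2.21%, close to those of protein-coding genes and above those of long noncoding RNA genes. A pair of descriptors moved with the calls, both chosen after their values were seen. The first was the span of protein-coding genes on GRCh38.p14, from start to end with introns. Higher calls had a median span of 14.7 kb and lower calls 41.8 kb, beside 25.9 kb over all probe sets of such genes. In the shortest quintile of genes, up to 7.49 kb, 132 of 2539 were higher (5.20%) and 39 lower (1.54%). In the longest quintile, from 87.3 kb, 29 were higher (1.14%) and 65 lower (2.56%).

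The second was the mean level. In the dimmest quintile of probe sets, with a mean log2 level up to 5.60, 1.12% were higher and 1.12% lower, against 6.21% and 5.00% in the brightest quintile, from 9.00. The shortest quintile of genes had a lower median level (6.97) than the longest (7.71). Part of either descriptor in the replicate difference was not tested.

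**Figure D5:**
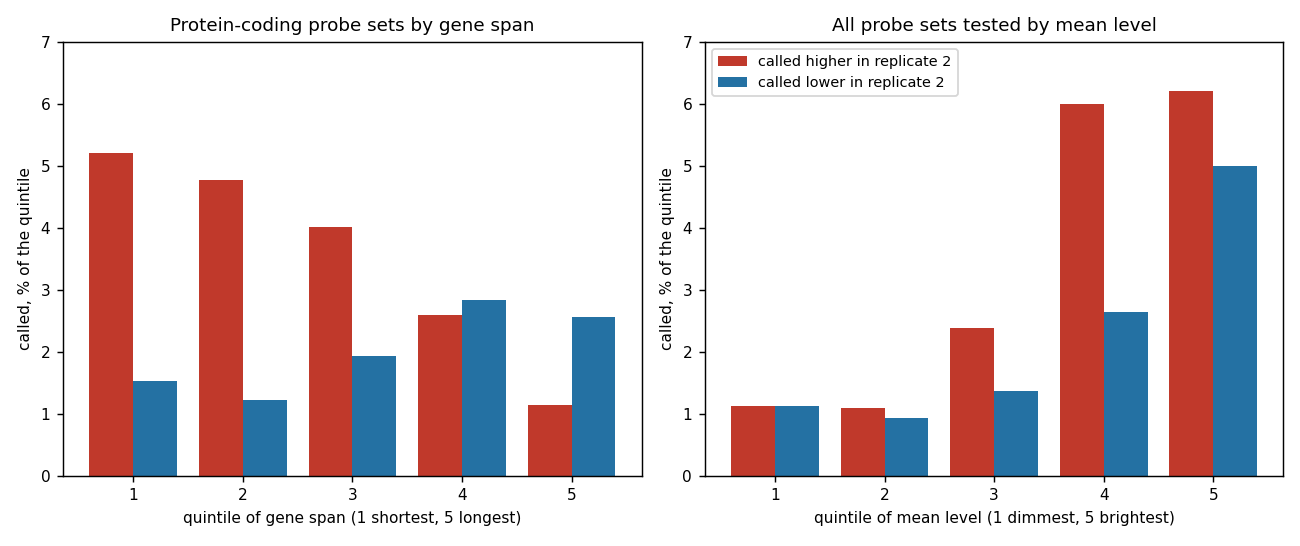
Percent of probe sets called higher (red) and lower (blue) in replicate 2, by quintile of gene span for protein-coding genes (left, 2539 probe sets per quintile) and by quintile of mean level for all probe sets tested (right, 3219 or 3220 per quintile). Higher calls go from 5.20% in the shortest to 1.14% in the longest quintile, and both kinds of call are most frequent in the brightest quintiles.

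Probe sets of 1 gene often differed. Of 734 genes with several distinct probe sets, 107 had a call, and 17 of these were called on every probe set. In 67 of the 107 the strongest call was not on the brightest probe set, and in 56 of those 67 the brightest one moved by less than 1.5-fold. The median mean level of these 67 calls was 6.82, beside 9.62 for the brightest probe set of the same genes.

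Several of the leading genes belong here. PAIP2 had a second probe set at 9.68 and 9.55 in vector and 9.02 and 9.01 in shRNA1. ITM2B had one at 11.79 and 11.36 and at 11.57 and 11.49, and POLK one at 8.54 and 7.98 and at 8.62 and 8.29. TRAM1 had one with a difference of 0.40 and MAPK1IP1L one with -0.05, and neither passed the threshold. For PTGES3 the brighter probe set was also called, by 0.78. The differences of these genes therefore describe single probe sets rather than all RNA of the gene, and TM7SF3 was called in both directions on its 2 probe sets (0.65 and -0.99).

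The shRNA2 arrays were read against these calls as values without a test. At the 541 higher calls the median replicate difference was 0.94 in vector, 0.86 in shRNA1 and 0.12 in shRNA2, with a positive shRNA2 sign at 434 (80.2%, against 52.0% over all probe sets). At the 356 lower calls the medians were -0.76, -0.81 and -0.02, with a negative sign at 185 (52.0%, against 48.0%). The 28 higher and 7 lower calls that also differed by 1.5-fold or more the same way in shRNA2 include POLK, ITM2B, TRAM1, PAIP2, MIR221 and MIR32.

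Placed on a scale from 0 at the replicate 1 mean of vector and shRNA1 to 1 at their replicate 2 mean, the shRNA2 arrays had medians of 0.69 and 0.83 at the higher calls and of 0.62 and 0.68 at the lower calls. Both shRNA2 arrays were nearer to replicate 2 at 63.2% of the higher and 54.2% of the lower calls, and at 46.8% over all probe sets. They were both nearer to replicate 1 at 20.9%, 30.9% and 31.7%. These shares compare levels between different lines, so the shRNA2 line itself and the replicate cannot be told apart in them.

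In the test of the difference, 1698 probe sets had an unadjusted p under 0.05 and only LOC100287834 passed after adjustment. The SE was larger in that contrast than in the shared one (for LOC100287834, 0.25 against 0.14). A p that misses the threshold there does not show that shRNA2 moved like the other lines. For SCARNA22 the shRNA2 difference minus the shared one was -3.18 (SE 0.33, adjusted p = 0.234, limma), and for MALAT1 it was -2.27 (SE 0.39, adjusted p = 0.265, limma). For POLK it was -0.12 (SE 0.26, adjusted p = 0.910, limma).

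Vector and shRNA1 did not move together everywhere. A 1.5-fold difference or more was reached by 1792 probe sets in vector, 1975 in shRNA1 and 416 in shRNA2. In vector and shRNA1 together it was reached in the same direction by 487 higher and 311 lower, and in opposite directions by 15. In all 3 lines it was reached the same way by 34. Among these was a probe set of YAP1, the coactivator of the Hippo pathway, at 5.77 and 7.47, at 5.83 and 7.22, and at 6.50 and 7.13. The brighter YAP1 probe set had a shared difference of -0.18 (adjusted p = 0.474, limma). CXCL10, an interferon-induced chemokine, was lower in replicate 2 of each line (-0.83, -1.37 and -0.81). Both were chosen after their values were seen.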

How the data were processed

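The authors deposited log2 values made with Affymetrix Expression Console and RMA, the tools that the submitters' processing notes name without a version. RMA corrects the background, normalizes probes by quantiles across arrays and summarises them per probe set. No detection call came with the values. Of 53617 probe sets on the Human Gene 2.0 ST array, 16098 carry 1 gene symbol on the probe annotation used here and were tested, and the 37519 others entered 1 alternative. Values of LincIN itself were not analysed here. Array medians ran from 6.12 to 6.30, and precision is limited by the 4 arrays fitted.

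The difference of replicate 2 minus replicate 1 was fitted with the line as a block on 4 arrays in limma 3.58.1 (R 4.3.3, lmFit and eBayes), with Benjamini-Hochberg adjustment over all probe sets tested. A second fit on 6 arrays tested the shRNA2 difference minus the shared one. P-values measure the spread between these arrays alone. The fit was tested on simulated data. Genes were placed through RefSeq on GRCh38.p14. The genes named are the 15 highest and 15 lowest called differences, up to 4 called members of each list by size, and the probe sets called in the second test. Genes named outside this rule, such as MYC, TERC, MIR222, TMEM245, TM7SF3, YAP1, CXCL10, RPL31, the microRNA genes paired by seed and second probe sets, were chosen after their values were seen. The comparison, members and lists were chosen with earlier results of these data known. Other computations used Python 3.11.15 and pandas 2.3.3, and figures matplotlib 3.10.9.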

Additional observations from a re-analysis of the deposited data

Results flagged for a closer look

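LOC100287834 was singled out because its replicate difference was not the same in all lines. The shRNA2 difference minus the difference of vector and shRNA1 was -4.90 on the log2 scale (adjusted p = 0.00657, limma), with levels of 9.65 and 9.72 in shRNA2. Its shRNA2 arrays differed by 0.07, less than the SE of the shared difference (0.14). Groups of 2 arrays are too small for a search for single outlying arrays.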

How the results depend on the processing

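The 897 calls became 2 with all 6 arrays under 1 replicate term, 0 without eBayes (40 at an unadjusted p under 0.001), 1347 with arrays centred on their medians, 1625 after quantile normalization, 1513 without dim probe sets and 2066 with an intensity trend. Leaving out 1 array in the 6-array fit gave from 1 to 897 calls, the latter without either shRNA2 array, where the lone shRNA2 array carries no replicate difference and the fit equals that on 4 arrays. The share of calls that were higher was 60.3%, and 69.3% with median centring, 52.8% with quantile normalization, 49.7% with the trend and 74.8% with all probe sets. That last fit made 861 calls, 128 of them on named probe sets, all 128 among the 897. With 1 row per set of identical probe sets, an alternative chosen after seeing the data, 778 were called. The 1 call in the test of the shRNA2 difference became 0 with all probe sets, 9 with quantile normalization and 97 with the trend. None of the 30 genes of largest difference changed sign under any alternative run, and all 30 passed with median centring, quantile normalization and the trend, but 2 did with all 6 arrays under 1 term, 0 without eBayes, 1 without either vector array and 4 without either shRNA1 array. Why the counts moved was not tested. No paired analysis was possible because a block by replicate number would remove the effect compared, and the fit already sets the 2 arrays of each line against each other.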
